A study of Mus musculus with 2 samples.

Results

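The cells described here were conventional dendritic cells of the second kind (cDC2) that carried transcripts of Cd209a, taken from the aortas of mice. They were chosen cell by cell from counts of unique molecular identifiers (UMIs, each standing for 1 captured transcript). A barcode was kept with at least 500 detected genes and at most 15% of its UMIs from mitochondrial genes. A member then needed at least 2 UMIs of Cd209a and at least 1 of Flt3 or Zbtb46. It could hold at most 1 UMI of the 3 complement C1q genes, at most 1 of Xcr1 and Clec9a, and at most 3 of Ly6c2, Vcan, F10 and Chil3. Cells with both Ccr7 and Fscn1, or with any UMI of Cd3e or Cd79a, were left out. Of 24504 kept cells, 148 were members. The values of these 16 genes therefore chose the cells, and are given only as a description.

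The study profiled CD45-positive (leukocyte) cells of the mouse aorta by droplet single-cell RNA sequencing with the 10x Chromium 3′ chemistry, in a series on atherosclerosis and on restoring the uptake of dying cells by macrophages. Of the 2 libraries, 1 is labelled treated with ZnDPA@siIRF5, a preparation named for a small interfering RNA against Irf5, and 1 is labelled control. The labels give neither what the control animals received, nor genotype, diet, sex, age, dose or the number of animals pooled into each library. The protocol in the labels speaks of snap-freezing and TRIzol beside the single-cell suspension. Pairs of values below are given in the order treated, control. Because each group was 1 library, no test between the groups was possible, and the cells of a library are not replicates of its condition. Intervals are exact 95% intervals that cover counting error only, and levels are UMIs summed over the cells, as counts per 1000000 UMIs of those cells (CPM).

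Conventional dendritic cells take up antigen in tissues, carry it to lymph nodes and present it to T cells. They depend on the receptor Flt3 for their supply and are marked by the transcription factor Zbtb46. The cDC2 branch relies on Irf4 and mainly presents peptides on MHC class II to helper T cells, whereas the cDC1 branch, marked by Xcr1 and Clec9a, relies on Irf8 and cross-presents antigen to cytotoxic T cells. Cd209a is a mouse homologue of the human lectin DC-SIGN. Irf5, the gene named in the treatment, encodes a transcription factor that acts downstream of Toll-like receptors and drives inflammatory cytokines in myeloid cells.

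The library labelled treated held 102 members and the library labelled control 46. Their UMIs summed to 962285 and 361880, with medians per cell of 9138 and 7520 UMIs and of 2687 and 2292 genes. The doublet caller Scrublet marked 1 and 3 of them. RNA of other cells was unequal between the libraries: immunoglobulin transcripts, made by plasma cells, stood at 715 CPM (663 to 770) and 3280 CPM (3096 to 3472) in the members, or 720 and 2631 CPM without the top cell of each library. The neutrophil genes S100a8 and S100a9 together stood at 485 and 1116 CPM, but 184 of 467 and 360 of 404 UMIs lay in 1 cell each, without which the levels were 297 and 126 CPM. At least 20 UMIs of T cell, B cell, plasma cell or neutrophil markers were present in 2 of 102 and 15 of 46 members, and 3 members labelled control held 20 or more UMIs of Igkc alone. T cell markers themselves stood at 16.6 and 16.6 CPM, fibroblast markers at 3.12 and 0 CPM, and macrophage markers at 467 and 343 CPM. Across the 2 libraries 45 barcodes were shared, of which 1 was a member.

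Most cells that carried Cd209a were not members. At least 2 Cd209a UMIs were present in 306 and 180 kept cells. The requirement for Flt3 or Zbtb46 left 174 and 85, and the limit on C1q, which marks macrophages, left 138 and 64. The limit on Xcr1 and Clec9a left 136 and 63, and that on the monocyte genes left 116 and 57. The bar on Cd3e and Cd79a took out 14 and 11 of these, which left the 102 and 46 members. The effect of this last step on the shares of members was not tested. Members at the threshold, with exactly 2 Cd209a UMIs, numbered 14 and 9 and held Clec10a at 238 and 83.4 CPM. Cells with exactly 1 Cd209a UMI that met every other condition numbered 23 and 12 and held Clec10a at 337 and 231 CPM. The median member had 6 and 7 Cd209a UMIs, and the highest had 38 and 33.

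Markers that the rule did not use were set beside those of other classes of cells. Clec10a, a lectin that binds galactose-type sugars, stood at 336 CPM (300 to 374) and 381 CPM (320 to 451) in the members. In cDC1, defined by 2 or more UMIs of Xcr1 and Clec9a, it stood at 4.49 and 1.43 CPM, and in classical monocytes, defined by 6 or more UMIs of the 4 monocyte genes without Flt3 or Zbtb46, at 19.2 and 18.3 CPM. Its close relative Mgl2 stood at 237 and 301 CPM in members and at no more than 13 CPM in the other 4 classes compared. Neither gene is particular to the members, since Cd209a cells with 2 or more C1q UMIs, which the rule left out, held Clec10a at 1067 and 1240 CPM and Mgl2 at 454 and 397 CPM. The cDC1 and monocyte classes were also limited to at most 1 UMI of Cd209a and at most 1 of the C1q genes. Such cells could therefore not enter them, and the contrast with these classes was in part set by their definition. Clec10a was detected in 77 of 102 and 28 of 46 members, and in 3.72% and 2.75% of T cells, the class used to gauge free RNA. With every cell thinned to 2000 UMIs, the shares were 45.1% and 34.8% of members against 1.70% and 1.19% of T cells. The median T cell held 5014 and 4148 UMIs before thinning. The T cell class had no limit on C1q or monocyte genes, and Scrublet marked 167 of 2042 and 123 of 3125 of its cells. Its levels can thus include RNA of doublets beside free RNA.

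The 2 transcription factors that divide the branches lay on opposite sides. Irf4 stood at 61.3 and 47.0 CPM in members against 2.25 and 6.45 CPM in cDC1. It too was not particular to the members, since Cd209a cells with 2 or more C1q UMIs held it at 55.4 and 102 CPM. Irf8 stood at 47.8 and 60.8 CPM in members against 990 and 893 CPM in cDC1. Sirpa, a surface receptor of cDC2 and macrophages, was at 178 and 141 CPM in members and at 2.25 and 3.58 CPM in cDC1. The integrin subunit Itgam was at 140 and 158 CPM, below the 303 and 296 CPM of classical monocytes. Esam, an adhesion molecule of 1 cDC2 subset, had no UMI in any member. The label of the cells was thus not contradicted by their markers, with 1 reservation: 23 of 102 and 14 of 46 members had no UMI of either Clec10a or Mgl2.

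**Figure D1:**
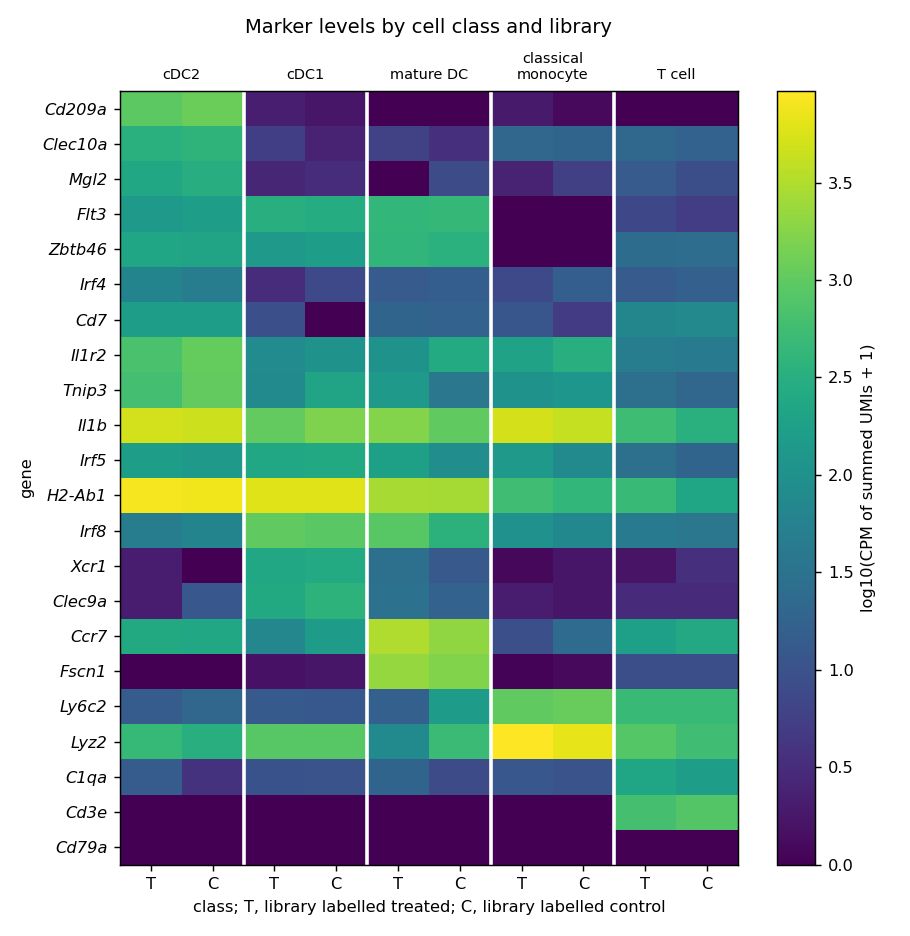
Level of 22 marker genes (log10 of CPM + 1, colour) in Cd209a dendritic cells and 4 other classes of cells, each in both libraries. The Clec10a and Mgl2 rows are at 237 to 381 CPM in the Cd209a cells and far lower in the other classes, and Irf8 is highest in cDC1.

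Beside cDC1, the members held far more of several lectin genes and less of other genes of varied function. Of 1238 genes with at least 50 UMIs in members of each library, 199 (16.1%) were at least 2-fold higher in members than in cDC1 in both libraries, and 22 (1.78%) were at least 2-fold lower. A fold of 2 served as the mark throughout. The gene minimum was set on the members, so higher genes enter more readily than lower ones. Mgl2 led, with log2 ratios of 7.14 and 7.13 over cDC1. Next to it stood Clec10a (6.22 and 7.47), the unconventional myosin gene Myo1e (7.05 and 6.21), the phospholipid transfer protein gene Pltp (6.16 and 6.59) and the inhibitory lectin Clec4a3 (6.03 and 7.22), which had no UMI in cDC1 of the library labelled control. Cd72, a lectin-like receptor best known on B cells, had ratios of 5.92 and 6.44. On the other side, the protease inhibitor Cst3 was at 2189 and 2061 CPM in members against 13010 and 16750 CPM in cDC1. Id2, a regulator that cDC1 need, had log2 ratios of -2.56 and -2.37, and Psap, the precursor of the lysosomal saposins, of -2.10 and -2.0.

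Read by list, 14 of 19 measured cDC2 identity genes and 10 of 15 C-type lectins were 2-fold higher in members than in cDC1 in both libraries, and 0 and 1 were lower. The same count was 11 of 16 for genes linked to monocytes and to DC3, a monocyte-like dendritic cell, and 12 of 20 for chemokines and their receptors. Over all 6917 genes measured this way the shares were 7% higher and 8.2% lower. Cell cycle genes went the other way, with 0 of 24 higher and 8 lower. The inflammatory cytokine gene Il1b was at 5015 CPM (4875 to 5159) and 4640 CPM in members, against 1053 and 1565 CPM in cDC1.

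Mature dendritic cells, taken here as cells with both Ccr7 and Fscn1, differed from the members in the maturation genes. None of 21 measured maturation genes was 2-fold higher in the members in both libraries and 16 were lower, beside 9.19% higher and 8.59% lower among all 4692 genes. Of the 1238 genes well measured in members, 193 (15.6%) were higher and 51 (4.12%) lower. Clec10a had log2 ratios of 5.46 and 5.72, the activating receptor gene Cd300c2 of 5.03 and 5.12, and Ctnnd2, a catenin gene better known from neurons, of 5.09 and 4.93. Lower in members were the ceramide synthase gene Cers6 (-3.28 and -2.77), the membrane protein gene Tmem123 (-3.13 and -2.73), and Itga4, a subunit of the integrin that binds VCAM1 (-2.85 and -2.47). S100a8 and S100a9 were also lower, but mature cells labelled control held S100a9 at 14400 CPM. With Scrublet doublets removed, the count of genes lower than in mature cells was 33. Ccr7, a rule gene that steers cells to lymph nodes, still had a UMI in 54 of 102 and 23 of 46 members, since the rule barred it only together with Fscn1, which no member carried.

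Beside classical monocytes, the members stood apart by antigen presentation on MHC class II. Of 15 measured class II genes, 12 were 2-fold higher in members in both libraries and 0 lower, where all 9129 genes gave 4.95% and 7.42%. The class II chain gene H2-Ab1 was at 8142 and 7677 CPM in members against 573 and 425 CPM in monocytes. H2-Oa and H2-DMb2, which encode chains of the 2 accessory molecules that govern peptide loading, had log2 ratios of 5.81 and 6.21, and of 5.57 and 6.77. The lectin-like receptor gene Klri1 was at 142 and 158 CPM against 1.51 and 0.241 CPM. In all 174 of the 1238 genes (14.1%) were higher and 33 (2.67%) lower. The lower ones were led by S100a8 (-6.37 and -6.48), S100a9 (-6.30 and -6.16), the lysozyme gene Lyz2 (-4.34 and -4.42) and the transcription factor gene Cebpb (-2.72 and -2.59). Of the 23 measured monocyte and DC3-associated genes 16 were lower and 1 higher, although Il1b reached 5098 and 4240 CPM in monocytes, close to its level in the members. Lyz2 in members, at 462 and 315 CPM, lay below the 828 and 567 CPM of T cells. Thinned to 2000 UMIs, it was detected in 40.2% and 30.4% of members and in 19.0% and 11.7% of T cells, so shares and levels gave opposite orders.

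The members were not uniform, and Mgl2 marked 1 axis of difference in both libraries. The genes that follow were picked for their contrast in the same cells, so they are a description. An Mgl2 UMI was present in 29 and 10 members, which had medians of 9639 and 9229 UMIs against 9064 and 7358 UMIs in the rest. Cd7, a receptor best known on lymphocytes, was at 13.6 CPM in Mgl2-positive and 228 CPM in Mgl2-negative members labelled treated, and at 0 and 232 CPM in those labelled control. Plac8, a gene of immature myeloid cells, was at 495 against 1094 CPM and at 80.7 against 914 CPM. Ifitm1, an interferon-inducible membrane protein gene, was at 783 against 1562 CPM and at 534 against 2657 CPM. Flt3 followed the same order, at 71.2 against 169 CPM and at 70.6 against 194 CPM.

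Other genes were higher with Mgl2. The adhesion receptor gene Adgrg6 was at 264 CPM in Mgl2-positive against 73.5 CPM in Mgl2-negative members labelled treated, and at 434 against 41.9 CPM in those labelled control. Psap was at 1223 against 592 CPM and at 1533 against 613 CPM, and Myo1e at 373 against 157 CPM and at 474 against 187 CPM. Isg15, a ubiquitin-like protein induced by interferon, was at 363 against 153 CPM and at 403 against 122 CPM. Clec10a itself showed no such order in both libraries, with log2 ratios of Mgl2-positive over Mgl2-negative members of 0.62 and -0.15.

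Ccr7 marked another division, although it is a gene of the rule and no member carried Fscn1. The genes given were again picked after their values in the same cells were seen, so they are a description. S100a8 and S100a9 were lower in members with a Ccr7 UMI, with log2 ratios of -2.90 and -4.22 for S100a8 and of -2.67 and -3.75 for S100a9, although most UMIs of the 2 genes labelled control lay in 1 cell. Members with a Ccr7 UMI held more Specc1, at 181 against 66.6 CPM and at 232 against 62.0 CPM, and more of the polyamine enzyme gene Odc1, at 205 against 59.5 CPM and at 196 against 98.1 CPM. Il1b was at 5560 against 4313 CPM and at 5569 against 3832 CPM. Cd83, a maturation marker that stabilises class II on the surface, was at 1329 against 804 CPM and at 1177 against 1007 CPM. Cd7 was lower with Ccr7, at 124 against 212 CPM and at 77.3 against 248 CPM.

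A minority of members carried genes of dividing cells. At least 2 UMIs summed over Mki67, Top2a and Birc5 were present in 13 of 102 and 3 of 46 members, and 10 or more in 8 and 1. In those 13 and 3 cells the tubulin gene Tubb5 was at 1692 and 1127 CPM, against 165 and 131 CPM in members with none of the 3 genes. The microtubule regulator gene Stmn1 was at 1227 and 534 CPM against 11.3 and 30.2 CPM. Isg15 and Plac8 were lower in the cycling members of both libraries, Isg15 at 74.6 against 270 CPM and at 59.3 against 192 CPM. The 3 cycling members labelled control, however, held only 2 UMIs of Isg15 and 3 of Plac8. The cycling members labelled treated were deeper, with a median of 13429 UMIs against 8884 UMIs.

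Irf5, the gene named in the treatment, had no lower level in members of the library labelled treated than in those labelled control. It lies on chromosome 6 at chr6:29526625-29541871 on the plus strand (GRCm38, GENCODE vM21). Its UMIs numbered 159 and 49, or 165 and 135 CPM, in 67 of 102 and 27 of 46 members. The log2 ratio of treated over control was 0.29 (-0.18 to 0.78), and over 15 alternative ways of choosing, weighting or scaling cells it ran from 0.12 to 0.72. The interval thus allows a decrease of up to -0.18 on the log2 scale. In the other classes the same ratio was -0.17 (-0.38 to 0.04) in cDC1, 1.07 (0.47 to 1.69) in mature dendritic cells, 0.79 (0.62 to 0.98) in classical monocytes and 0.64 (0.42 to 0.87) in T cells. T cells held Irf5 at 27.8 and 17.8 CPM, below the members. Transcript counts from the 3′ end do not measure the protein, and the labels do not name the targeted site within Irf5.

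Around Irf5, the members of its family and of its signalling route had mixed values. Of 7 measured genes of the IRF family, 6 had a log2 ratio above 0 and 1 was past 2-fold, Irf1, an interferon-induced activator of antigen presentation genes. Irf1 was at 92.5 and 33.2 CPM, a log2 ratio of 1.48 (0.60 to 2.49), in 38 and 10 members. Irf7 had a ratio of 0.53, Irf4 of 0.38 (-0.11 with at least 4 Cd209a UMIs) and Irf8 of -0.35. Among 13 measured Toll-like receptors and IRF5 adaptors, 9 were above 0 and 2 past 2-fold higher. These were Traf6, a ubiquitin ligase downstream of Myd88, at 82.1 and 38.7 CPM, and the kinase gene Irak4, with a ratio of 1.02. Myd88, the adaptor that links the receptors to Irf5, had a ratio of 0.09. For scale, here and for the lists below, the 6040 genes with at least 20 UMIs over both libraries had a median of 0.06. Of them 55.1% were above 0, 6.77% were 2-fold higher and 2.53% 2-fold lower.

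Between the libraries, the members made up 0.818% (0.668% to 0.992%) of kept cells in that labelled treated and 0.382% (0.280% to 0.509%) in that labelled control. The ratio of these shares was 2.14 (1.5 to 3.1). With 1 library a group, library and treatment cannot be told apart. Among the 3 dendritic cell classes, the members made up 102 of 284 cells (35.9%, 30.3% to 41.8%) and 46 of 195 cells (23.6%, 17.8% to 30.2%). The share ratio was 1.22 (0.938 to 1.58) for cDC1 and 1.08 (0.696 to 1.69) for mature dendritic cells. Classical monocytes stood at 10.5% and 4.63% of kept cells, a ratio of 2.28 (2.06 to 2.52). Without members that held 20 or more UMIs of other cells' markers, the ratio of the member shares was 3.12. That limit left out 2 of 102 and 15 of 46 members, and was not applied to the other kept cells.

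Few genes with ample counts differed by 2-fold between the libraries. Of 2994 genes with at least 50 UMIs and 50 CPM in 1 of the libraries, 74 (2.47%) were 2-fold higher in the library labelled treated and 18 (0.601%) 2-fold lower. The entry level was unequal, since the members labelled treated held more UMIs in sum. There 50 UMIs equal 52.0 CPM, against 138 CPM in the members labelled control. With an equal entry level of 150 CPM in either library, 1214 genes gave 7 higher (0.577%) and 13 lower (1.07%), so that 35% of the calls were higher where 80.4% had been. With the median ratio set to 0, 67 were higher and 22 lower, 75.3% higher. The direction of the surplus thus depended on the entry level.

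**Figure D2:**
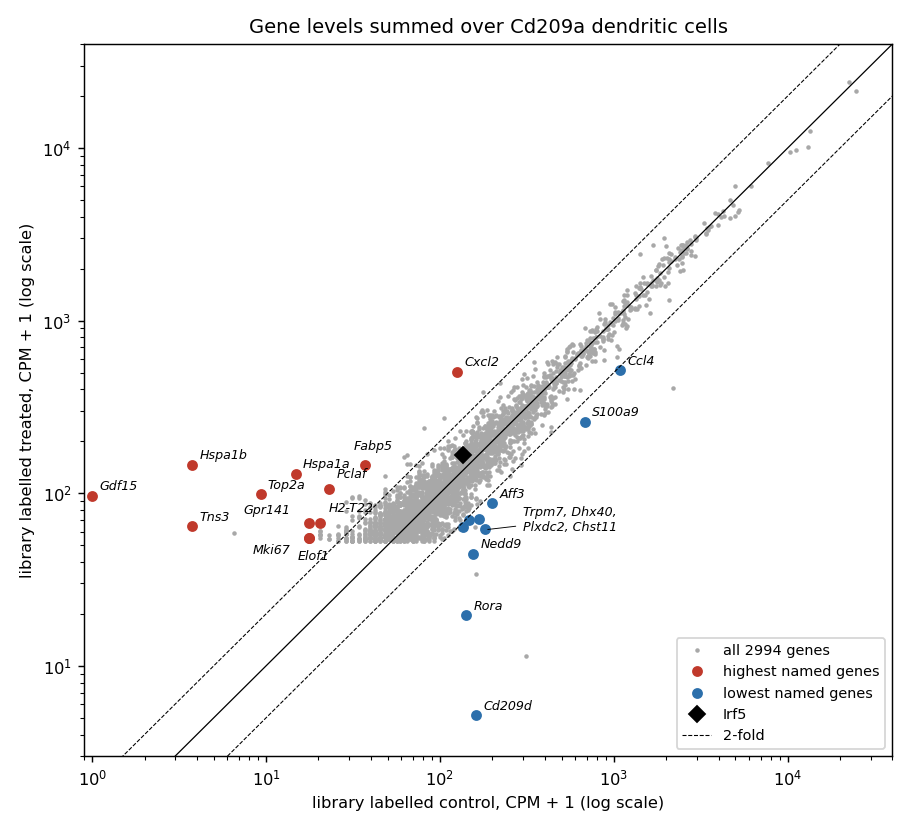
Each point is 1 of 2994 genes, with its level summed over members of the library labelled control (x axis) and of that labelled treated (y axis), both as CPM + 1 on log scales. Red and blue points are the highest and lowest genes named by rule, the diamond is Irf5 at 165 and 135 CPM, and dashed lines mark 2-fold.

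The highest log2 ratio among the named genes, 5.72, belonged to the inducible heat shock gene Hspa1b. Its near copy Hspa1a had a ratio of 3.22, and both encode the cytosolic chaperone HSP70. The genes are neighbours on the minus strand of chromosome 17, at chr17:34969190-34972156 and chr17:34956436-34959238, and are nearly identical, so reads can be split between them and only their sum is firm. Their promoters are shown because both genes differed between the libraries. These are the 250 bases before each start in RefSeq (GRCm38.p6), at chr17:34972157-34972406 and chr17:34959239-34959488, minus strand, read 5′ to 3′, with capitals marking the match to GAANNTTC, the inverted repeat of the unit that heat shock factors bind.
Hspa1a: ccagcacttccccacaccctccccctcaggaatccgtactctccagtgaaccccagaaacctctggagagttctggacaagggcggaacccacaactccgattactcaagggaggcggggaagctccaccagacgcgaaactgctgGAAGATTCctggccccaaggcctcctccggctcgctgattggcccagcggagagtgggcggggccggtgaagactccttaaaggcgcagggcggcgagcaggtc
Hspa1b: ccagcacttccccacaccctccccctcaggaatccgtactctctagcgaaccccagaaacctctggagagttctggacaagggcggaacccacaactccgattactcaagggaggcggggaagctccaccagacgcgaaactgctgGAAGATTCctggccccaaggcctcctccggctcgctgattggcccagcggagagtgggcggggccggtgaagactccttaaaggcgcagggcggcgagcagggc
The stretches are 98.8% identical, at 247 of 250 bases. Each holds 1 match to GAANNTTC, starting 104 bases before the gene, and none to TTCNNGAA. Both motifs read the same on either strand, so a single search covers both strands. Of 32851 RefSeq promoters of the same length, 6.69% hold GAANNTTC, 7.17% hold TTCNNGAA and 12.8% hold at least 1 of them. A match of letters is a description, and does not show that a factor was bound.

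Hspa1a and Hspa1b together had 264 and 6 UMIs, or 274 CPM (242 to 310) and 16.6 CPM (6.09 to 36.1), a log2 ratio of 4.05 (2.91 to 5.51). They were detected in 30 of 102 and 5 of 46 members, and 5 or more UMIs were present in 9 and 0. The highest cells held 57 UMIs (treated) and 2 UMIs (control), so the groups overlapped, and most members of both libraries had none. Hspa1b alone had 140 and 1 UMIs and Hspa1a 124 and 5. In the other classes the sum differed less. It was lower in the library labelled treated in cDC1, at 185 and 211 CPM (-0.19), and in mature dendritic cells, at 337 and 413 CPM (-0.29). It was higher there in classical monocytes, at 112 and 68.2 CPM (0.71), and in T cells, at 150 and 119 CPM (0.34). The member cells labelled control thus stood below every other class of their own library. Of 28 measured immediate early and heat shock genes 18 were above 0 and 3 were 2-fold higher, with a median of 0.18, so the list as a whole did not share the size of this difference. Hsp90aa1, the inducible cytosolic HSP90, had a ratio of -0.01, and Dnajb1, a partner of HSP70, of 0.52.

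Members with an Hspa1a or Hspa1b UMI differed from the rest in other genes, in both libraries. These genes too were picked for their contrast in the same cells, so they are a description. The chemokine gene Ccl4 was at 972 against 324 CPM in those labelled treated and at 3256 against 799 CPM in the 5 cells labelled control. Those 5 cells held at most 2 UMIs of Hspa1a and Hspa1b each, and 119 of their 139 Ccl4 UMIs lay in 1 cell. Fos, an immediate early gene, was at 922 against 445 CPM and at 1288 against 326 CPM. Hspa8, the constitutive relative, was at 1741 against 1032 CPM and at 1616 against 893 CPM. Lower with Hspa1 were Areg, a growth factor of the EGF family, at 10.7 against 213 CPM and at 0 against 210 CPM, and Cd274, the checkpoint ligand PD-L1, at 64.1 against 197 CPM and at 70.3 against 160 CPM.

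**Figure D3:**
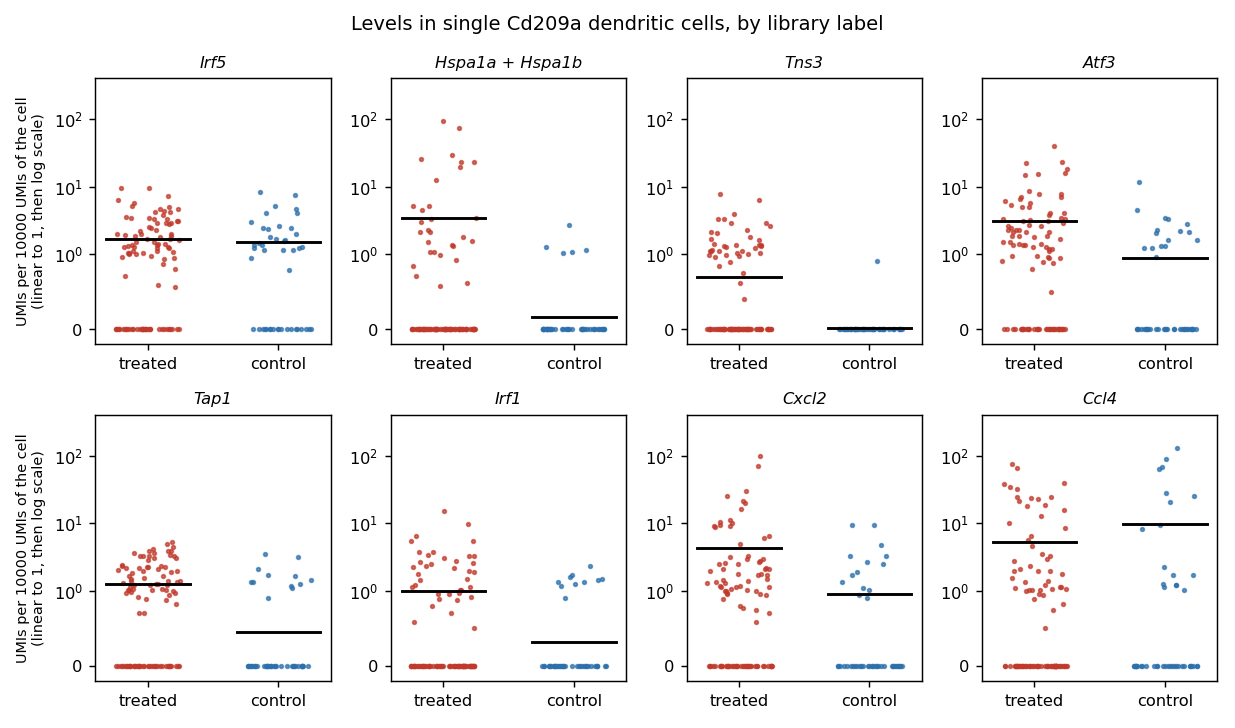
Each point is 1 member cell, with its UMIs of the named gene per 10000 UMIs of the cell (y axis, symmetric log scale), in the library labelled treated (102 cells) and that labelled control (46 cells), with black bars for the mean over cells. The sum of Hspa1a and Hspa1b is above 0 in 30 and 5 cells and Tns3 in 39 and 1, while the Irf5 points of both libraries overlap over their range.

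Tns3, which encodes a tensin that ties integrins to the cytoskeleton, was spread over many cells of the library labelled treated. It had 61 and 1 UMIs, or 63.4 and 2.76 CPM, a log2 ratio of 4.52 (1.99 to 9.85), in 39 of 102 and 1 of 46 members. Thinned to 2000 UMIs a cell, 11.8% and 0% of members held it, and the fitted ratio dropped to 0.97 against the floor of 3 UMIs. The gene spans chr11:8431652-8664535 on the minus strand. In cDC1 it was at 217 and 264 CPM and in classical monocytes at 104 and 56.9 CPM.

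Atf3, a stress-induced repressor, was at 272 and 105 CPM, with a log2 ratio of 1.37 (0.88 to 1.91), in 65 and 16 members. Klf6, an early response transcription factor, was at 302 and 174 CPM (0.80, 0.40 to 1.21). The checkpoint receptor gene Havcr2, which encodes TIM-3, was at 94.6 and 30.4 CPM (1.64, 0.73 to 2.69), in 37 and 9 members, but at 0.18 on the log2 scale with a minimum of 1 Cd209a UMI. All of these ran the same way, in more cells and at a higher level in the library labelled treated. Gpr141, an orphan receptor gene, had 64 and 6 UMIs and a ratio of 2.0, and Elof1, a transcription elongation factor gene, 52 and 6 UMIs and a ratio of 1.70. Gpr141 was also higher in T cells, at 18.6 and 5.13 CPM (1.86), in cDC1 (0.61) and in classical monocytes (0.35). In mature dendritic cells it had 0 and 8 UMIs. The ratio of Klf6 was 0.88 in mature dendritic cells, 0.38 in classical monocytes, 0.41 in T cells and -0.07 in cDC1.

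Other high ratios came with most UMIs in 1 cell or with a level that T cells also showed. Gdf15, a stress-induced cytokine of the TGF-beta family, had 92 and 0 UMIs, of which 88 came from 1 cell. Fabp5, a fatty acid binding protein gene, had 140 and 13 UMIs, and stood at 168 and 102 CPM in T cells. Its ratio was 2.02, and 2.21 without the top cell of each library, but 0.79 without members that had any C1q UMI. Cxcl2, a chemokine for neutrophils, had 486 and 45 UMIs, or 505 and 124 CPM, with a ratio of 2.02 (1.58 to 2.50). It was detected in 61 and 14 members, and 173 and 17 UMIs came from 1 cell each, without which the ratio was 2.07. Without members that had any C1q UMI it was 0.72. T cells held Cxcl2 at 1031 and 703 CPM, above the members. In classical monocytes, a main source of it here, Cxcl2 stood at 6379 and 5021 CPM.

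The genes with the lowest ratios mostly rested on few control cells or on low counts. Cd209d, a relative of Cd209a, had 4 and 58 UMIs, but 48 of the latter lay in 1 cell. Rora, a nuclear receptor gene of lymphoid cells, had 18 and 51 UMIs with 47 in 1 cell, and S100a9 had 249 and 247 UMIs with 220 of the latter in 1 cell. Spread over more cells was Nedd9, a scaffold protein of adhesion and migration, with 42 and 56 UMIs, 43.6 and 155 CPM and a ratio of -1.83 (-2.44 to -1.22). Aff3, a nuclear factor of lymphoid cells, had 83 and 72 UMIs and a ratio of -1.21, and Chst11, a chondroitin sulphotransferase gene, 59 and 65 UMIs and a ratio of -1.55. Each of the 3 was under 2-fold in at least 1 alternative: Nedd9 at -0.77 without members rich in other cells' markers, Aff3 at -0.27 without any C1q UMI and Chst11 at -0.42 without the deepest cells. Ccl4, a chemokine that attracts T cells and monocytes, was at 513 and 1089 CPM, a ratio of -1.08 (-1.28 to -0.89), in 49 and 17 members. Its direction turned, to 0.25, without members that held 20 or more UMIs of other cells' markers. Plxdc2, Dhx40 and Trpm7 followed, with ratios of -1.25, -1.12 and -1.09, which were -1.0, -0.36 and -0.41 without the top cell of each library.

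Antigen presentation split by class. Among 18 measured genes of MHC class I presentation, 14 were above 0 and 3 past 2-fold higher, with a median of 0.46. Among 15 of MHC class II presentation, 5 were above 0 and 2 past 2-fold lower, with a median of -0.20. The medians kept their signs over all 15 alternatives, at 0.31 to 0.60 and at -0.25 to -0.10. Alternatives with at least 1000 genes or at most 10% mitochondrial UMIs kept the same 102 and 46 members, so their values could not differ. Leaving immunoglobulin genes out of the total, or setting the median ratio to 0, shifted all ratios alike. The difference between the class I and class II lists was not tested, since each library is 1 sample.

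Single class I genes differed in size. Tap1, a subunit of the transporter that moves peptides into the endoplasmic reticulum, was at 125 and 47.0 CPM, a log2 ratio of 1.41 (0.67 to 2.23), in 63 of 102 and 12 of 46 members. Thinned to 2000 UMIs a cell, Tap1 was in 22.5% and 15.2% of members, with a ratio of 0.74. Tap2, the other subunit, had a ratio of -0.04. The immunoproteasome subunit genes Psmb9 and Psmb8 were at 198 and 111 CPM (0.84, 0.35 to 1.37) and at 460 and 296 CPM (0.64, 0.33 to 0.96). Tap1, at chr17:34187553-34197225 on the plus strand, and Psmb9, at chr17:34181987-34187764 on the minus strand, overlap at their first bases, and no source used here says whether counting used strand. The nonclassical class I gene H2-T22 was at 66.5 and 19.3 CPM (1.78, 0.66 to 3.15), in 42 and 6 members, and H2-T23 at 255 and 163 CPM (0.64, 0.23 to 1.08). In thinned cells these ratios were 0.97 and -0.19. Class I genes resemble each other, so reads can be split among them. H2-K1 was at 1661 and 1777 CPM, a ratio of -0.10, and H2-D1 and B2m had ratios of 0.08 and 0.14.

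On the class II side the abundant chains were nearly level. Cd74, the invariant chain, was at 21320 and 24610 CPM, a log2 ratio of -0.21, and H2-Aa, H2-Ab1 and H2-Eb1 had ratios of -0.09, 0.08 and -0.20. H2-DMb2, a chain of the peptide editor H2-DM, was at 174 and 262 CPM (-0.60, -0.97 to -0.22). The 2 genes past 2-fold lower were H2-Eb2, a less abundant beta chain gene (-1.58), and March1, a ubiquitin ligase that removes class II from the surface (-1.16). Ciita, the class II activator, had a ratio of 0.23, which ran from -0.13 to 1.81 over 15 alternatives.

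Interferon response genes lay mostly above 0. For interferon gamma response genes, 11 of 13 measured were above 0 and 4 past 2-fold higher, with a median of 0.72 that ran from 0.13 to 1.41 over 15 alternatives. Of 28 measured type I interferon response genes 23 were above 0 and 6 past 2-fold higher, with a median of 0.33 and a range of 0.05 to 0.61. Over all 6040 genes 55.1% were above 0 and 6.77% past 2-fold higher. Irf1 and Tap1, described with their own groups, are both induced by interferon. Both are counted again in the interferon gamma list, as are Psmb9, Ciita and Nlrc5, so these lists are not independent. Zbp1, a sensor of left-handed nucleic acid helices, was at 68.6 and 30.4 CPM (1.17). Not all members of these lists ran this way. Cxcl10, a chemokine for T cells, was at 172 and 243 CPM (-0.50, -0.88 to -0.11), but at 2.0 on the log2 scale without members that held 20 or more UMIs of other cells' markers. Ifi27l2a was at 950 and 1152 CPM (-0.28), and Isg15 had a ratio of 0.13. In cDC1 of the same libraries Irf1 was at 64.6 and 68.1 CPM and Tap1 at 243 and 239 CPM.

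Lectins, cytokines and chemokines showed single genes rather than a list-wide difference. Genes used by the rule are left out of the list counts that follow. Of 15 measured C-type lectins 7 were above 0, with a median of -0.13. Clec4b1 was at 159 and 290 CPM (-0.87, -1.24 to -0.50) and the inhibitory Clec4a3 at 183 and 320 CPM (-0.81, -1.16 to -0.46). Among 22 cDC2 identity genes 8 were above 0, with a median of -0.08. Tnip3, an inhibitor of NF-kappa-B signalling, was at 616 and 1047 CPM (-0.77, -0.95 to -0.58), in 73 and 38 members. Il1r2, the decoy receptor for interleukin 1, was at 680 and 1067 CPM (-0.65, -0.83 to -0.47), in 89 and 42 members. Its ligand gene Il1b differed little, with a ratio of 0.11 (0.03 to 0.19). Il1r2 was lower in the library labelled treated in mature dendritic cells (-1.38) and classical monocytes (-0.76) as well.

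Of 11 measured cytokine genes 8 were above 0 and 2 past 2-fold higher, with a median of 0.14. These included Tnf, at 86.3 and 38.7 CPM, not above the 103 and 53.4 CPM of T cells, which also make it, and Vegfa, with a ratio of 1.11. Over 15 alternatives the log2 ratio of Tnf ran from 0.17, in thinned cells, to 1.52, and that of Vegfa from 0.45 to 2.08. Among 19 chemokines and receptors 11 were above 0, with a median of 0.10. Ccr2 and Ccr7, which guide cells into inflamed tissue and to lymph nodes, had ratios of 0.14 and 0.11, and Gpr183, a receptor for oxysterols that positions cDC2 in lymphoid tissue, was at 158 and 268 CPM (-0.76, -1.14 to -0.38). Maturation genes, with 5 of 12 above 0 and a median of -0.08, and costimulation and checkpoint genes, with 11 of 15 above 0 and a median of 0.08, were near the level of all genes. Cd86 and Cd83, a costimulatory ligand and a maturation marker, had ratios of 0.08 and 0.02.

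**Figure D4:**
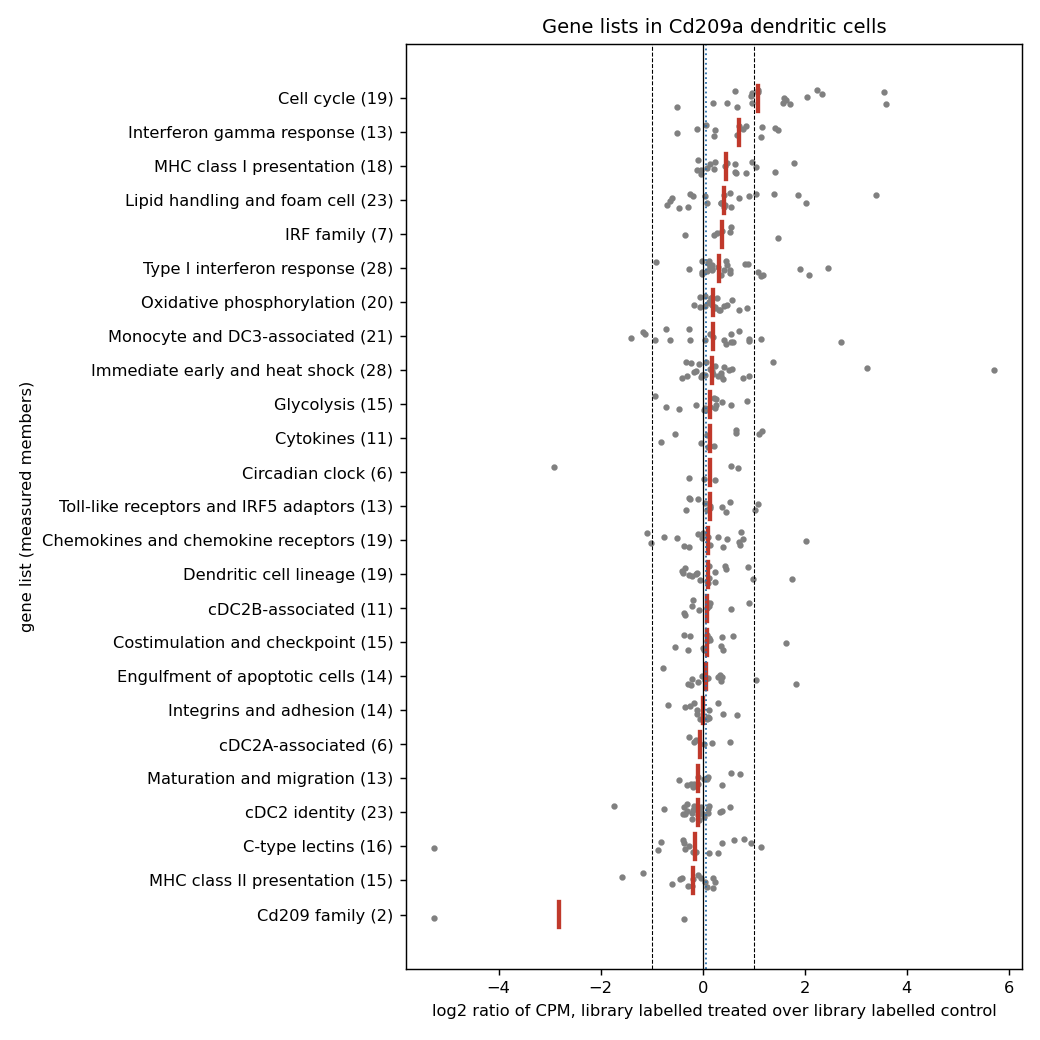
Log2 ratio of treated over control in the members (x axis) for each measured gene (grey points) of 25 gene lists (y axis), genes used by the rule included, with the median of the list as a red mark, the median of all 6040 genes as a dotted line and 2-fold as dashed lines. Cell cycle genes have a median of 1.09 and MHC class II genes of -0.20.

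The list farthest above the other genes was the cell cycle, with 18 of 19 measured genes above 0, 11 past 2-fold higher and a median of 1.09. Cycling members, as counted above, were 13 of 102 and 3 of 46. Top2a, the topoisomerase of dividing cells, had 94 and 3 UMIs and a ratio of 3.56. Pclaf, a partner of the replication clamp PCNA, had 101 and 8 UMIs (2.25), and Mki67, the proliferation antigen, 52 and 6 UMIs (1.70). Thinned to 2000 UMIs a cell, Top2a was in 4.90% and 4.35% of members and Mki67 in 8.82% and 2.17%. Over 15 alternatives the ratio of Top2a ran from 0.74 to 4.76 and that of Mki67 from 0.61 to 2.09. That of Pclaf ran from 1.35 to 3.84 over 14. Without the cells that held 2 or more UMIs of Mki67, Top2a and Birc5, Stmn1 turned from 1.58 to -0.72. The median of the list ran from 0.12 to 1.71 over 15 alternatives.

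Metabolic and uptake genes showed smaller values. In the list of lipid handling and foam cell genes, 16 of 23 measured were above 0 and 5 past 2-fold higher, with a median of 0.42. Ctsl, a lysosomal protease gene, was at 57.2 and 27.6 CPM (1.05, 0.06 to 2.19). Abca1, a cholesterol exporter, was at 82.1 and 80.1 CPM (0.03). Macrophage markers, at 467 and 343 CPM, move with this list, and their part in it was not tested. Oxidative phosphorylation genes had 17 of 20 above 0 and none past 2-fold, with a median of 0.21, and glycolysis genes 11 of 15 above 0 with a median of 0.15. Of 14 measured engulfment genes 8 were above 0, with a median of 0.07. Mertk, a main receptor for dying cells on macrophages, had no UMI in any member. The other lists lay near the median of all genes: dendritic cell lineage at 0.10, cDC2B-associated genes at 0.10, cDC2A-associated genes at -0.05, integrins and adhesion at 0.01 and circadian clock genes at 0.14.

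Set beside the other classes, the members shared some of these ratios and not others. The log2 ratio of Psmb9, 0.84 in the members, was 0.07 in cDC1, 0.27 in mature dendritic cells, 0.23 in classical monocytes and 0.02 in T cells. That of Il1r2, -0.65 in the members, was -0.32, -1.38, -0.76 and 0.23 in the same order. H2-T22 was at 44.9 and 35.8 CPM in cDC1 (0.33), at 73.5 and 104 CPM in mature dendritic cells (-0.50), at 66.0 and 47.7 CPM in classical monocytes (0.47) and at 118 and 123 CPM in T cells (-0.06). Ccl4 was at 252 and 243 CPM in cDC1 (0.05). None of these differences between classes was tested, as each class was measured once in each library.

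**Figure D5:**
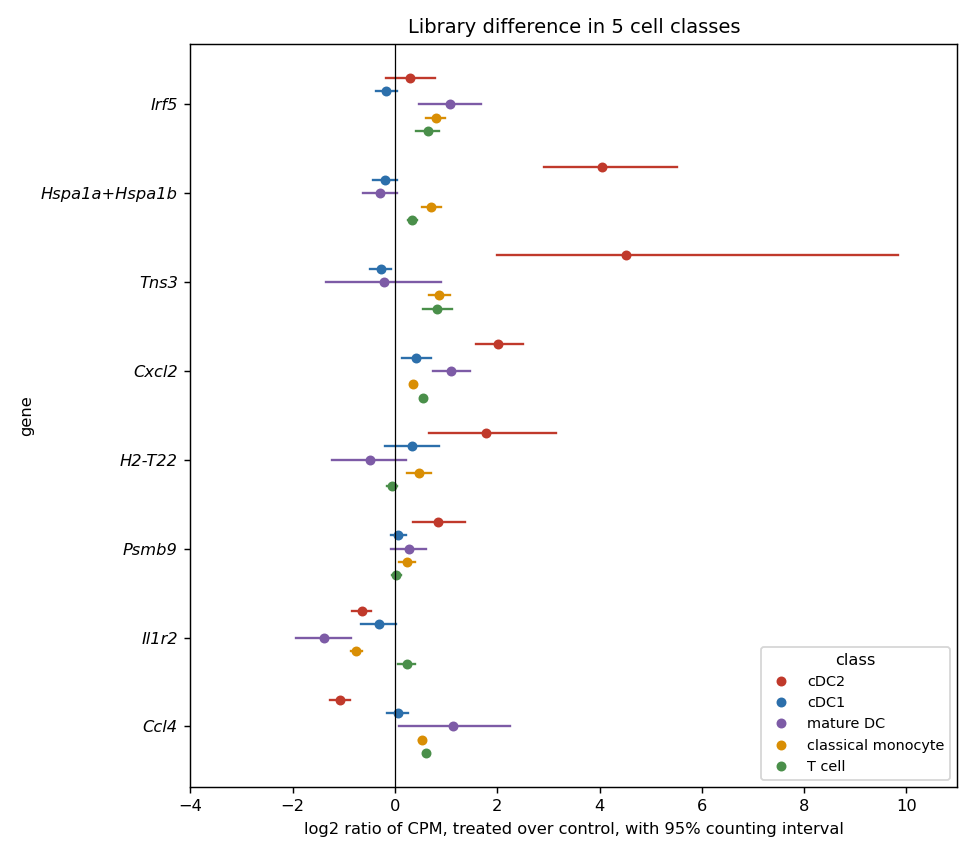
Log2 ratio of treated over control with its 95% counting interval (x axis) for 8 genes or sums of genes in 5 classes of cells. The sum of Hspa1a and Hspa1b is at 4.05 in the Cd209a dendritic cells and at -0.29 to 0.71 in the other classes, and Irf5 runs from -0.17 to 1.07.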

How the data were processed

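Per the labels, 2 libraries of CD45-positive aortic cells were made with the 10x Chromium 3′ kit. The deposited values are raw UMI counts per gene and barcode, whole numbers without normalization, made by the authors with Cell Ranger. The submitters' processing notes name Cell Ranger 3.1.0, Seurat 4.4.0 and mm10, whereas Cell Ranger 7.2.0 made the matrices, per the file headers. The sources used here do not say whether intronic reads were included. They list 32285 genes, of which 32158 were found in GENCODE vM21, and hold 77856529 and 88567528 UMIs in all.

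The members and the gene lists were chosen with earlier results of these data known. UMIs were summed over the cells of a class in each library and given as CPM with exact Poisson intervals. Ratios have exact conditional binomial intervals and shares exact Clopper-Pearson intervals, at 95%. A ratio against 0 UMIs was taken against a floor of 3 UMIs over the group. With 1 library a group, no p-value was computed. Genes of 2994 with at least 50 UMIs and 50 CPM in a library were named where the interval left out 0, as the 12 highest and 12 lowest, and beside each other class the 8 highest and 8 lowest. Genes used by the rule, and mitochondrial, ribosomal, haemoglobin, sex-linked, predicted, immunoglobulin and T cell receptor genes, were left out, and some items are not reported here. List members needed 20 UMIs over both libraries, and up to 5 a list were named by size. Further members, and the genes compared within the members, were chosen after their values were seen. Scrublet, with an expected rate of 10%, marked doublets within each library, and marked cells were kept. T cells were cells with 2 or more Cd3e UMIs and neither Cd79a nor Cd209a. Of the alternatives, 14 were planned and run, and 4 were added after seeing the data. The ratio calculation was tested on simulated data. Python 3.11.15, numpy 2.4.6, scipy 1.17.1, pandas 2.3.3, scanpy 1.11.5 and matplotlib 3.10.9 were used.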

Additional observations from a re-analysis of the deposited data

How the results depend on the processing

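No paired analysis was possible because each group was 1 library. A version with at most 1 UMI of other cells' markers was not run, since no member of either library met it. The share of members was 1.0% with at least 1 Cd209a UMI, 0.65% with at least 4, 0.578% without any C1q UMI and 1.02% with at least 1000 genes a cell in the library labelled treated, and 0.274% with at least 4 Cd209a UMIs in that labelled control. Without members that held 20 or more UMIs of other cells' markers the control share was 0.258% and the ratio of shares 3.12. Kept cells outside the members were not filtered in this way. The count of 2-fold higher genes was 12 in thinned cells, 120 without those members, 343 with an entry of 20 UMIs, 4 with 200 UMIs and 7 with 150 CPM. That of 2-fold lower genes was 11 with doublets removed, 9 each without monocyte gene UMIs, without C1q UMIs and without the 10% deepest cells, 2 in thinned cells, 3 without the top cell of each gene, 75 with an entry of 20 UMIs and 3 with 200 UMIs. With doublets removed, 33 genes were lower than in mature dendritic cells. The median of the Cd209 family rests on Cd209d and on Cd209a, which chose the cells, so it carries no finding. It was -2.82, and -0.37 without monocyte gene UMIs, -0.31 without the deepest cells, -0.20 in thinned cells, -0.32 without the members rich in other markers and -0.32 without top cells. That of monocyte and DC3-associated genes was 0.64 in thinned cells and 0.65 without top cells. Among genes past 2-fold, direction turned for Rora (0.62 with doublets removed, 1.02 without the deepest cells, 0.12 without the members rich in other markers, 0.59 without the top cell) and for S100a9 (1.35, 1.91, 0.17 and 1.08 in the same order, and 1.92 without monocyte gene UMIs). It also turned for Stmn1 (-0.72 without cycling cells) and Ccl4 (0.25 without the members rich in other markers). Beyond fewer cells or genes in these alternatives, the cause was not tested. Of the single-gene ratios recomputed, 1597 stayed within their counting interval, 127 left it and 11 past 2-fold turned. Of the list medians 368 stayed within the median interval width of their genes and 7 did not. Both sets of counts include the alternatives that kept the same members or shifted all ratios alike, which could differ little or not at all. With 46 members labelled control, a gene below 50 UMIs there lay below 138 CPM, which limits what could be seen.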

Other observations

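Kept cells with at least 2 UMIs of Cd209a and at least 2 of C1q, which the rule left out, numbered 103 in the library labelled treated and 87 in that labelled control. They carried macrophage genes. C1qa, which chose them, stood at 3971 and 4319 CPM and Mrc1, the mannose receptor of tissue macrophages, at 1420 and 1632 CPM. Lyz2 stood at 4458 and 4446 CPM. Clec10a was also present, at 1067 and 1240 CPM, as was Mgl2, at 454 and 397 CPM, both above the members. Cd209d, which had 4 and 58 UMIs in the members, stood at 576 and 772 CPM. Cd7 stood at 2.41 and 22.7 CPM and Il1b at 1366 and 1447 CPM, both below the members. Clec10a and Mgl2 were therefore not particular to the members, whereas Cd209d was far lower in them. The difference in C1qa was set by the choice of cells.

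Another 27 and 8 cells failed the rule only for lack of a Flt3 or Zbtb46 UMI. They held Clec10a at 469 and 314 CPM and Lyz2 at 1150 and 837 CPM.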
